A study of Rattus norvegicus with 9 samples.

Results

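The genes described here encode the main building blocks of the basement membrane: the collagen IV chains Col4a1 and Col4a2, the basement membrane zone collagens Col15a1 and Col18a1, the laminin chains Lama2, Lama4, Lamb1 and Lamc1, the linker nidogen-1 (Nid1) and the heparan sulfate proteoglycan perlecan (Hspg2). They were chosen by name as structural components, with earlier results of these data known. Set beside all genes, their share of calls is therefore description. By symbol, 9 of the 10 were found among the 35843 genes of the table. Perlecan was not found under its symbol. The RefSeq gene table gives AABR07073181.1 as a synonym of Hspg2, and that row (ENSRNOG00000021437) is described beside the others as the perlecan row but is not counted with the 9.

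Left ventricular RNA was sequenced from adult male Sprague-Dawley rats, 3 in each of 3 groups. In MI rats the left anterior descending artery was tied off for good and saline was given by gavage each day until day 28. DAPA rats had the same ligation and received dapagliflozin, an inhibitor of the renal sodium-glucose cotransporter, at 1 mg/kg each day by gavage from day 1 to day 28. Sham rats had the operation without ligation and received saline. Tissue for molecular work came mainly from the infarct border, with scar removed, and from the same place in Sham hearts, but for the sequencing the study speaks of left ventricle and of infarcted myocardium, so how much scar these samples held is not settled by its text.

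A basement membrane is a thin sheet of matrix that surrounds each cardiomyocyte and underlies the endothelium. Laminin trimers of an alpha, a beta and a gamma chain assemble at the cell surface and bind integrins and dystroglycan, collagen IV forms a covalent network, and nidogen and perlecan tie the layers together. Laminin alpha 2 is the alpha chain of striated muscle, whereas alpha 4 and alpha 5 are the alpha chains of blood vessels. Col15a1 and Col18a1 carry heparan or chondroitin sulfate chains, and the C-terminal fragment of Col18a1 is endostatin.

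The stretches in front of 5 of these genes are printed because the data turn on how these genes differ: Col4a1 and Col4a2 start back to back and encode chains of the same trimer, Nid1 had the largest change of the 9, and Lama2 and Lama4 are alpha chains that behaved differently. They come from the RefSeq promoter table (GRCr8), in which all 10 genes were matched. The first is the 76 bases between the Col4a2 and Col4a1 starts, chr16:84885521-84885596, read on the plus strand towards Col4a1. The others are the 250 bases before the start on the plus strand, at chr17:93069036-93069285 for Nid1, chr1:19491896-19492145 for Lama2 and chr20:43946648-43946897 for Lama4. Capitals mark matches on either strand to any of 5 motifs, and no marked matches overlap each other. The GC box was searched as GGGCGG, and the box named CCAAT by its own letters. The TATA box was searched in its longer form TATAAA, the SMAD element with the letters CAGACA, and the AP-1 site with the letters TGANTCA.
Col4a1 and Col4a2: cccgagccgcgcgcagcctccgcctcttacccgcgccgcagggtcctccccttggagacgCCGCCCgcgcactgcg
Nid1: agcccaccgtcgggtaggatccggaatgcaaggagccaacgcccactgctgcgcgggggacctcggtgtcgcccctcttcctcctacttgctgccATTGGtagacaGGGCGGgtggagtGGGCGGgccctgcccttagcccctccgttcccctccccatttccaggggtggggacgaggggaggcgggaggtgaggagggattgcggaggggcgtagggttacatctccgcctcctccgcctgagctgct
Lama2: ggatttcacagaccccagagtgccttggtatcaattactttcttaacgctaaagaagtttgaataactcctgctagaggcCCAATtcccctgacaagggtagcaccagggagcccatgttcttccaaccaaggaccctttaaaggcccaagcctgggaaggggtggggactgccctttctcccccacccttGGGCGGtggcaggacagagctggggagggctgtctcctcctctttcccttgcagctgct
Lama4: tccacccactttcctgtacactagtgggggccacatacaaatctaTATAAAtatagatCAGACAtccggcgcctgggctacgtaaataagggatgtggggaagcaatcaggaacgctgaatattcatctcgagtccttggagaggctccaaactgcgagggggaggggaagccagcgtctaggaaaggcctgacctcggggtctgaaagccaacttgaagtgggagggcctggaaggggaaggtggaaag

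Over the 250 bases before the start, 8 of the 10 genes held a GC box, against 30.5% of all 33469 promoters in the table. Col15a1 and Lama4 held none. Lama4 was the 1 gene of the 10 with a TATA box (12.9% of all promoters) and the 1 with the SMAD element (17.2%). Both matches lie in the part of the Lama4 stretch that is far from the start, and whether they are used was not tested. A CCAAT box was found in Col4a1, Col4a2, Lama2 and Nid1 (34.0% of all promoters) and an AP-1 site in 0 of the 10 (6.34%). The windows of Col4a1 and Col4a2 overlap, so the GC box marked between their starts was counted for both. Their CCAAT boxes lie outside the printed stretch, beyond the start of the other gene. The GC content of these stretches ran from 53.2% in Lama4 to 75.2% in Col4a1, against a median of 51.2% over all promoters. These matches describe the letters of these windows only.

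The values were FPKM, fragments scaled to gene length and to a depth for each library that was not the total of its reads. For the same gene, 1 read was worth 1.85 to 2.19 times as much in the Sham rats as in MI rat 1. Whole read numbers could be recovered from the FPKM steps for all 18896 genes above 0 in at least 4 rats, and gave 13597239 to 17210909 reads per rat. The mitochondrial genome took 61.1% to 66.9% of them in Sham, 7.07% to 19.1% in MI and 17.5% to 32.0% in DAPA, which left 5702454 to 6570698 reads outside it in Sham and 11440726 to 13171891 in the ligated groups. The 10 genes were deeply covered: the lowest read number was 107, for Col15a1 in Sham rat 2, and every other gene had at least 721 reads in each rat. MI rat 2 stood apart, with the lowest mitochondrial share, the lowest level of the cardiomyocyte troponin Tnni3 (281 FPKM against 716 and 1352 in the other MI rats) and 2881 FPKM of Jchain, a plasma cell gene, against 23.9 and 503.2. For the 9 genes, the ratios and the main calls among the other lists, values without this rat are given where they differ most.

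After infarction the basement membrane genes were mostly higher than in Sham, but not as a block. Nidogen-1, laminin gamma 1, Col18a1, laminin alpha 2 and Col4a2 rose, Col4a1 and laminin beta 1 were higher by less than the fold threshold, laminin alpha 4 was level, and the perlecan row was lower. The 5 that rose are 5 of 9 genes, with 0 lower, at the study's own threshold (limma p under 0.05 and more than 1 log2 unit of change). Across all 13485 genes tested, 12.1% were called higher in MI and 10.3% lower. At p under 0.05 alone 7 of the 9 were higher (24.5% of all genes), the same 7 had an adjusted p under 0.05, and in 7 of 9 the lowest MI rat lay above the highest Sham rat (27.1% of all genes). The median log2 fold change of the 9 was 1.38, against -0.01 over all genes tested. All log2 fold changes are on the log2(FPKM + 1) scale, which understates the change of genes at low levels, and all p-values for single genes are from limma.

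**Figure D1:**
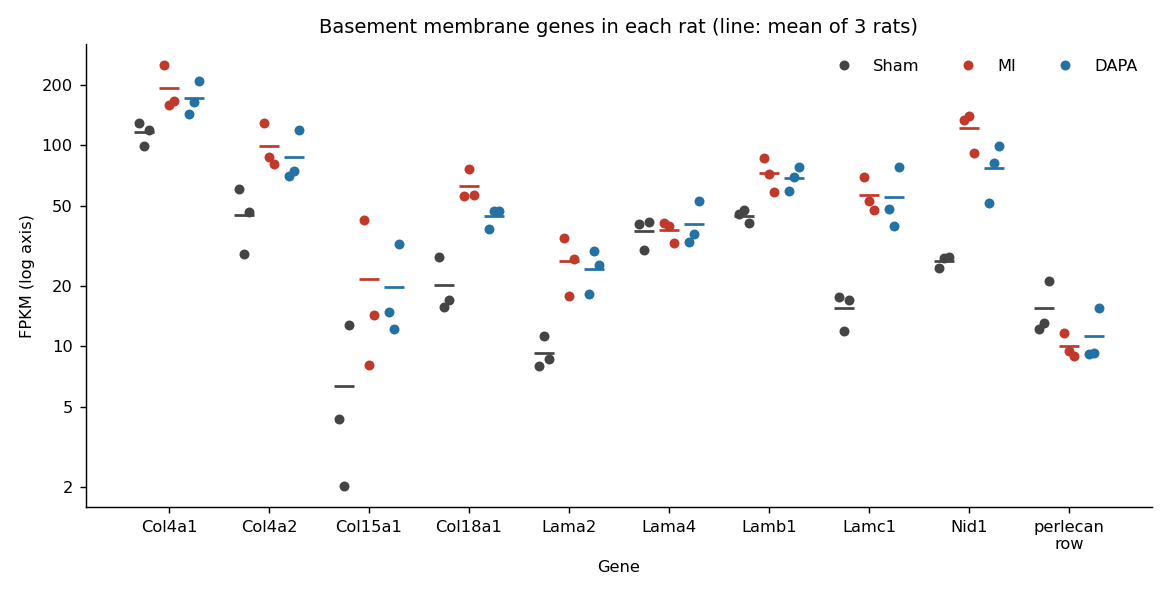
Level of each of the 10 genes in each rat, in FPKM on a log axis, with Sham in grey, MI in red and DAPA in blue; points are rats and lines are means of 3 rats. Nid1 and Lamc1 show the clearest gap between Sham and the ligated groups, Lama4 shows none, and Col15a1 spreads widely inside every group.

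Nidogen-1, which bridges the laminin and collagen IV networks, had the largest change of the 9. Its level was 24.5, 27.5 and 27.9 FPKM in the 3 Sham rats, 133.3, 140.1 and 91.5 in MI and 51.6, 81.2 and 99.3 in DAPA. The 3 groups had means of 26.6 ± 1.86, 121.6 ± 26.4 and 77.4 ± 24.1 FPKM (SD, n = 3), so every ligated rat was above every Sham rat, and DAPA overlapped MI by its highest rat. The log2 fold change in MI vs Sham was 2.13 (SE 0.19, adjusted p = 0.000984). Nid1 held rank 5 of the 10 in Sham and rank 2 in MI, where its range overlapped that of Col4a2, the next gene down.

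Laminin gamma 1, the gamma chain of most laminin trimers, followed a similar course in MI. Its level was 17.5, 11.9 and 16.9 FPKM in Sham, 69.6, 52.5 and 47.6 in MI and 47.9, 39.5 and 77.5 in DAPA. No Sham rat reached the lowest ligated rat, and DAPA rat 3 was the highest of all 9. The log2 fold change in MI vs Sham was 1.81 (SE 0.21, adjusted p = 0.00156).

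The laminin alpha chains differed from each other. Lama2, the muscle chain, was at 7.93, 11.2 and 8.63 FPKM in Sham, 34.4, 17.7 and 27.1 in MI and 18.1, 29.6 and 25.2 in DAPA, and it rose by a log2 fold change of 1.38 in MI vs Sham (SE 0.26, adjusted p = 0.00662). Lama4, the vascular chain, was at 40.7, 30.0 and 41.3 FPKM in Sham, 40.95, 39.7 and 32.7 in MI and 33.0, 36.3 and 52.6 in DAPA. The 3 groups of Lama4 overlapped, and its log2 fold change in MI vs Sham was 0.03 with a 95% interval of -0.39 to 0.44, which leaves out a doubling but not a smaller change. Lama4 held rank 4 of the 10 in Sham and rank 7 in MI.

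Because both chains come from the same library, their ratio does not depend on how the libraries were scaled. Lama2 was 0.195, 0.374 and 0.209 of Lama4 in the Sham rats, 0.839, 0.445 and 0.829 in MI and 0.550, 0.815 and 0.480 in DAPA. Every ligated rat was above every Sham rat. The ratio was 2.73 times higher in MI than in Sham (exact permutation test, two-sided, p = 0.1, the smallest that 3 against 3 can give, adjusted p = 0.15 over 6 tests of ratios) and DAPA differed from MI by -0.17 log2 units (exact permutation p = 0.8). That last difference was -0.48 without MI rat 2 (exact permutation p = 0.2), -0.40 without DAPA rat 2, and between -0.11 and -0.015 without any other rat.

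Laminin beta 1 was at 45.2, 47.5 and 40.9 FPKM in Sham, 86.4, 72.2 and 58.3 in MI and 59.4, 69.8 and 77.8 in DAPA. All ligated rats were above all Sham rats, and the log2 fold change in MI vs Sham, 0.67 (SE 0.17, adjusted p = 0.0220), was below the fold threshold. Lamb1 was thus higher by less than its partner Lamc1. The ratio of Lamb1 to Lamc1, chosen after its values were seen and so given without a test, was 2.58, 4.0005 and 2.42 in Sham, 1.24, 1.38 and 1.22 in MI and 1.24, 1.77 and 1.00 in DAPA.

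Among the collagen IV chains, Col4a1 was the most abundant of the 10 genes in each group, and its range did not overlap that of the next gene in any of them. It was at 128.7, 99.0 and 119.5 FPKM in Sham, 250.5, 159.1 and 165.8 in MI and 142.4, 163.5 and 209.3 in DAPA, with a log2 fold change in MI vs Sham of 0.70 (SE 0.21, adjusted p = 0.0383). Col4a2 was at 60.3, 28.6 and 46.4 FPKM in Sham, 129.1, 87.7 and 80.8 in MI and 70.3, 74.0 and 119.0 in DAPA, with a log2 fold change of 1.15 (SE 0.30, adjusted p = 0.0222). Both chains were higher in every ligated rat than in any Sham rat. The Col4a2 call rests on single rats: its log2 fold change was 0.86 without Sham rat 2 and 0.95 without MI rat 1, below the fold threshold (limma adjusted p = 0.0483 and adjusted p = 0.0696).

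The mature trimer holds 2 alpha 1 chains for each alpha 2 chain. Ratios of RNA in FPKM do not measure that balance of protein chains, and their size depends on the gene lengths counted. The ratio of Col4a1 to Col4a2 was 2.13, 3.46 and 2.58 in Sham, 1.94, 1.81 and 2.05 in MI and 2.02, 2.21 and 1.76 in DAPA. Every MI rat was below every Sham rat (-0.47 log2 units, or -0.28 without Sham rat 2, exact permutation p = 0.1, adjusted p = 0.15 over the 6 tests of ratios), and DAPA differed from MI by 0.04 log2 units (exact permutation p = 0.8). The Sham ratios spread more widely than those of MI, and 1 DAPA rat overlapped the lowest Sham ratio.

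The basement membrane zone collagens behaved unlike each other. Col18a1 was at 27.6, 15.6 and 16.9 FPKM in Sham, 55.9, 76.1 and 56.8 in MI and 38.4, 47.2 and 47.1 in DAPA, so the 3 groups were apart from each other in every rat. Its log2 fold change in MI vs Sham was 1.63 (SE 0.24, adjusted p = 0.00318). Col15a1 was at 4.34, 2.01 and 12.7 FPKM in Sham, 42.3, 8.05 and 14.2 in MI and 14.8, 12.2 and 32.4 in DAPA. The highest was 6.31 times the lowest in Sham and 5.26 times in MI, and with that spread the log2 fold change of 1.59 in MI vs Sham (SE 0.70, adjusted p = 0.112) did not pass. It passed the unadjusted threshold without Sham rat 3 (2.18, adjusted p = 0.0572) and without MI rat 2 (2.09, adjusted p = 0.0648), and it was smaller without MI rat 1 (0.96) or Sham rat 2 (1.09). The Col15a1 estimate thus moves by over 1.5 times with the choice of rats.

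The perlecan row ran the other way. It was at 12.2, 13.0 and 21.1 FPKM in Sham, 11.6, 9.45 and 8.91 in MI and 9.13, 9.20 and 15.5 in DAPA. All MI rats were below all Sham rats, with MI rat 1 and Sham rat 1 differing by less than 1 FPKM. The log2 fold change in MI vs Sham was -0.55 (SE 0.23, adjusted p = 0.0965), under 0.05 before adjustment but below the fold threshold. It was -0.32 without Sham rat 3, the highest Sham rat, and no longer under 0.05 before adjustment without that rat, MI rat 2 or MI rat 3 (-0.52 and -0.48 without the MI rats). Its sign depended on scaling, since it was 0.90 when all FPKM of a library were scaled to the same sum, a scaling that moved the median gene by 1.301. A second row with the related name AABR07073181.2 was listed at 0 in all rats. The gene length recovered for the perlecan row was 7575 bases, and how much of the gene that row covers was not checked.

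**Figure D2:**
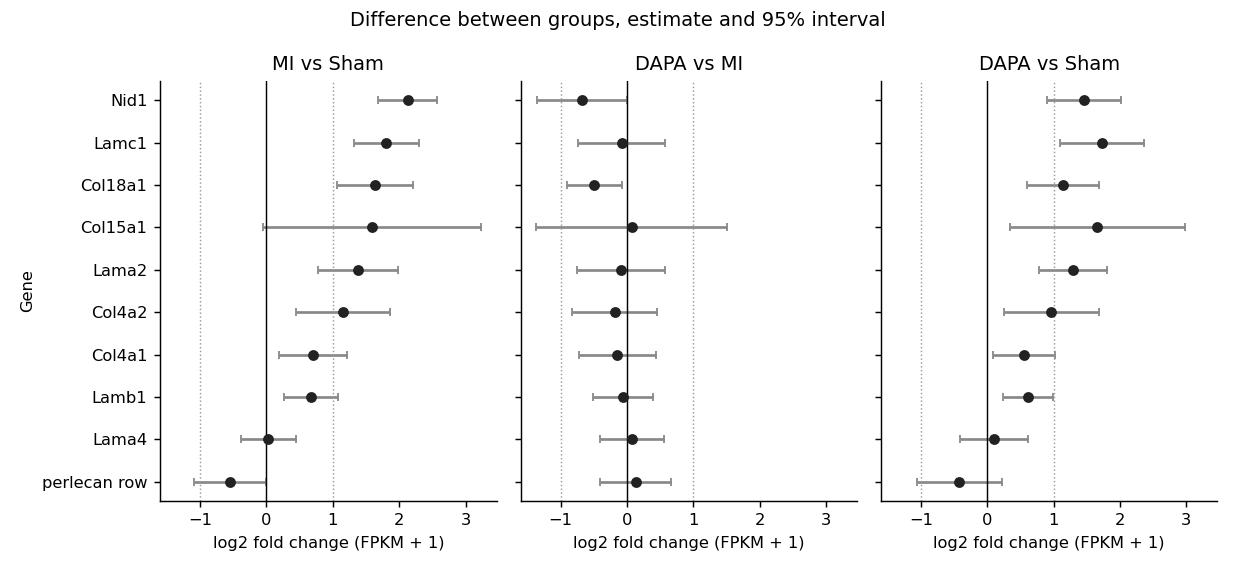
Log2 fold change of each of the 10 genes, on the log2(FPKM + 1) scale, in MI vs Sham, DAPA vs MI and DAPA vs Sham; points are limma estimates, bars are 95% intervals, and dotted lines mark the fold threshold. Nid1 is highest in MI vs Sham and Lamc1 in DAPA vs Sham, the perlecan row is lowest in both, and 9 of the 10 intervals in DAPA vs MI include 0.

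Dapagliflozin rats were compared with MI rats to ask whether treatment moved these genes back. In DAPA vs MI, 0 of the 9 genes were called lower and 0 higher, against 1.11% of all 13251 genes called lower and 0.951% called higher. Of the 9, 7 had a negative and 2 a positive log2 fold change, with a median of -0.09 against -0.02 over all genes. By limma and by limma-voom, 0 genes of the whole table had both an adjusted p under 0.05 and a log2 fold change beyond 1 in this comparison. Without MI rat 1, limma gave 2 such genes, lower in DAPA.

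Col18a1 was the 1 of the 9 with p under 0.05 (3.9% of all genes were lower at that p), and the 1 whose DAPA rats all lay below all MI rats (7.16% of all genes). It was 44.2 ± 5.02 FPKM in DAPA and 62.9 ± 11.5 in MI (SD, n = 3), a log2 fold change of -0.49 (95% interval -0.91 to -0.07, adjusted p = 0.558). It no longer reached an unadjusted p of 0.05 without MI rat 2 (-0.35, adjusted p = 0.982) or without DAPA rat 1 (-0.40, adjusted p = 0.779).

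Nid1 had the largest difference of the 9, -0.67 (95% interval -1.35 to 0.01, adjusted p = 0.558), or -0.56 without MI rat 2 (adjusted p = 0.982) and -0.41 without DAPA rat 1. The lowest DAPA rat, rat 1, was at 51.6 FPKM and the highest, rat 3, at 99.3, above the lowest MI rat. The other 7 genes differed by -0.19 to 0.08. Their 95% intervals began between -0.83 and -0.73 for Col4a1, Col4a2, Lama2 and Lamc1, so a decrease of that size lies within the error, and for Col15a1 the interval of -1.37 to 1.51 covers more than a doubling either way.

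DAPA rats were also compared with Sham rats. This comparison uses the same DAPA and Sham rats as the comparisons above, so the values are set side by side and not counted as separate support. In DAPA vs Sham 5 of the 9 genes were called higher (9.54% of all 13359 genes), 8 had p under 0.05 (21.1%), 5 had an adjusted p under 0.05 and 7 did not overlap Sham (23.2%). The count by adjusted p has no fold threshold, so its 5 genes need not be the 5 called, and a called gene need not pass adjustment. The called genes were Lamc1 (log2 fold change 1.73, against 1.81 in MI vs Sham), Col15a1 (1.66, against 1.59), Nid1 (1.46, against 2.13), Lama2 (1.29, against 1.38) and Col18a1 (1.14, against 1.63). Col4a2 was at 0.97 (adjusted p = 0.0524), Lamb1 at 0.61, Col4a1 at 0.55, Lama4 at 0.10 and the perlecan row at -0.42 (adjusted p = 0.289). Leaving out Sham rat 2 brought the count from 5 to 3, since Col18a1 came to 0.99 and Col15a1 came to 1.16, with an unadjusted p over 0.05 (adjusted p = 0.160). The Col15a1 call also ended without DAPA rat 3 (1.26) or Sham rat 1 (1.57). Its DAPA rats overlapped Sham, with DAPA rat 2 at 12.2 FPKM and Sham rat 3 at 12.7.

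Inside the groups, the same rats were often the highest or the lowest for these genes. The counts are not set beside all genes, so a difference between whole libraries cannot be told apart from one of these genes. MI rat 1 was the highest MI rat for 7 of the 9 genes and DAPA rat 3 the highest DAPA rat for 7, while DAPA rat 1 was the lowest for 7 and Sham rat 2 the lowest Sham rat for 6. Over the 9 rats, Pearson's r of each gene with the mean of the others was 0.962 for Lamc1, 0.961 for Col4a1 and Col4a2, 0.910 for Lamb1 and 0.900 for Nid1, and 0.817 to 0.832 for Col18a1, Lama2 and Col15a1. It was 0.417 for Lama4 and -0.31 for the perlecan row. These points share their libraries and group differences. On deviations from the group means, which take the groups out, Lama4 stood at 0.860, beside Col4a1 at 0.932, Col4a2 at 0.869 and Lamc1 at 0.809, while Lama2 and Col18a1 were at 0.179 and 0.195.

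The genes most like the 9 in their pattern over the 9 rats, among 11979 genes, were Adgrg2 (r = 0.985), Apcdd1, Crispld2, Sod3 and Tmem231 (r = 0.973 to 0.982). On deviations from group means they were Clec16a (r = 0.985), Abr, Angptl2, Pdgfra and Ltbp3 (r = 0.958 to 0.966). Pdgfra, a receptor of fibroblasts and perivascular cells, went from 5.90 FPKM in Sham to 47.8 in MI and 35.5 in DAPA. The extracellular superoxide dismutase Sod3 went from 26.8 to 133.3 and 124.4. Adgrg2, Tmem231 and Clec16a were near the filter of 1 FPKM, with group means of 0.691 to 1.28, 0.906 to 2.46 and 1.59 to 2.58 FPKM.

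The other alpha and beta chains and nidogen-2 showed which chains made up the total. Among the laminin alpha chains found, Lama2 went from 14.8% ± 4.37 of their summed FPKM in Sham to 34.5% ± 6.38 in MI and 31.8% ± 5.35 in DAPA (SD, n = 3), Lama4 from 58.3% to 50.9% and 52.8%, and Lama5 from 26.9% to 14.5% and 15.5%. Among the beta chains, Lamb1 went from 25.5% ± 1.86 to 48.5% ± 6.79 and 43.0% ± 2.44, and Lamb2 from 73.9% to 49.97% and 55.5%. For the shares of Lama2 and Lamb1 no ligated rat overlapped a Sham rat. The sum of the alpha chains was 63.8 FPKM in Sham, 75.4 in MI and 76.6 in DAPA, and that of the beta chains 175.5, 149.1 and 160.4.

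**Figure D3:**
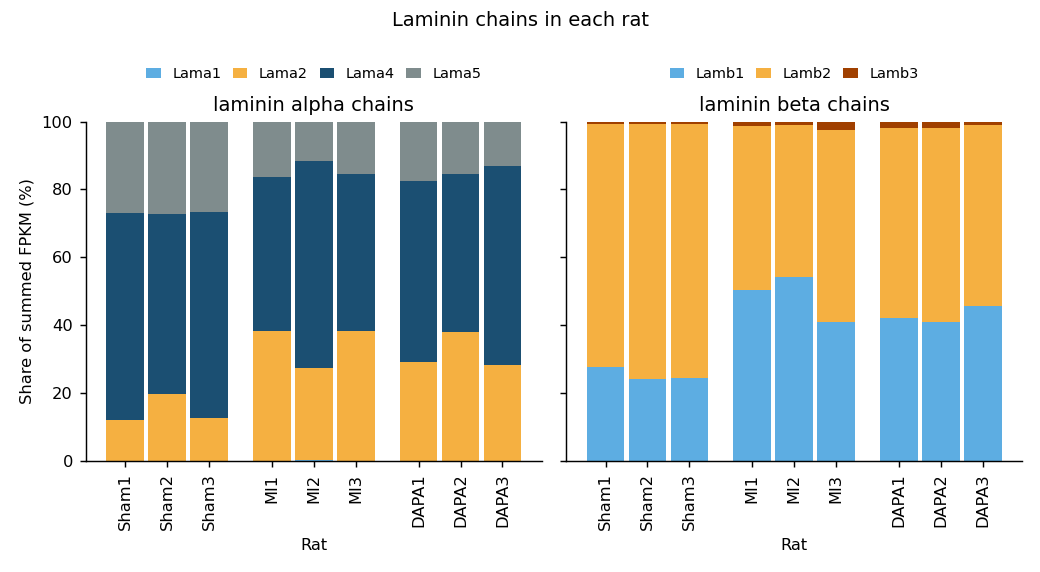
Share of each chain in the summed FPKM of the laminin alpha and beta chains, in percent, with 1 bar per rat. In the ligated rats Lama2 and Lamb1 take larger shares than in Sham rats, and Lama5 and Lamb2 smaller ones. Lama1 was at 0 or nearly so and Lama3 was not found by name.

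Lamb2, the beta chain of mature vessel and muscle laminins, was at 117.4, 147.4 and 124.9 FPKM in Sham and 83.4, 59.8 and 80.3 in MI. Its log2 fold change of -0.80 (adjusted p = 0.0127) is below the fold threshold. It became 0.74 when all FPKM were scaled to the same sum, still below the median gene at 1.301. The ratio of Lamb1 to Lamb2 inside each library was 0.385, 0.323 and 0.328 in Sham, 1.04, 1.21 and 0.725 in MI and 0.753, 0.717 and 0.859 in DAPA. The ratio of Nid1 to its paralog Nid2 was 1.69, 1.64 and 2.82 in Sham, 11.3, 13.5 and 9.51 in MI and 10.9, 9.06 and 11.1 in DAPA, and Nid2 alone had a log2 fold change of -0.32 in MI vs Sham (adjusted p = 0.269). Both ratios were chosen after their values were seen and are given without a test.

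**Figure D4:**
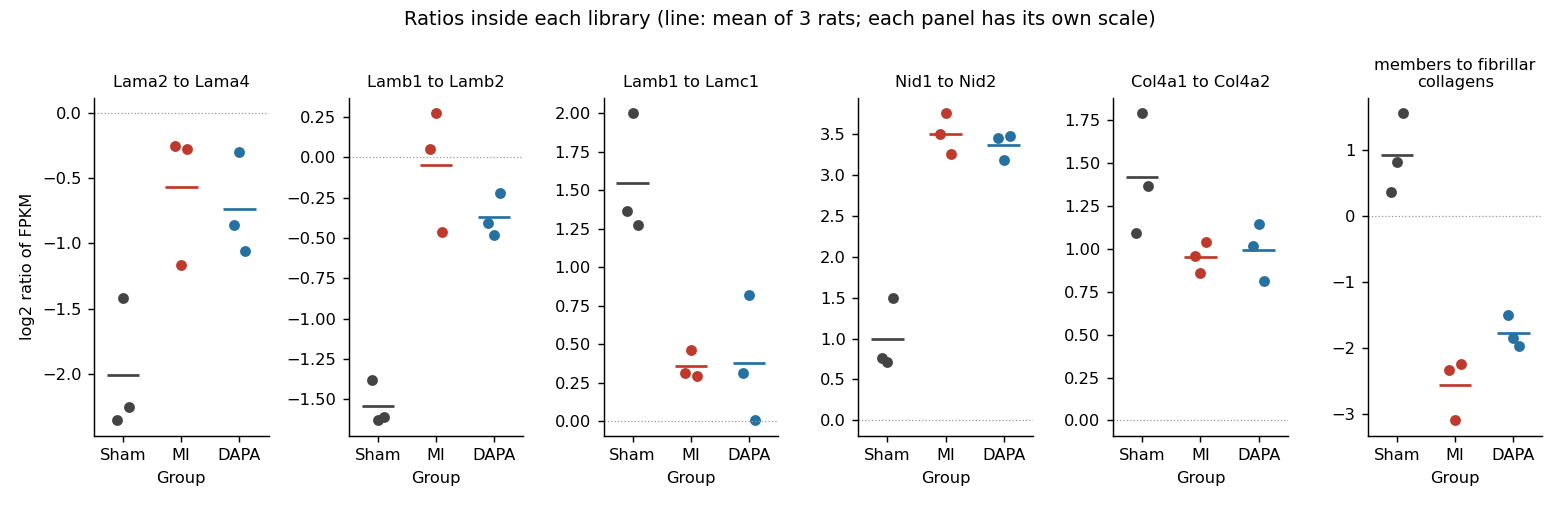
Log2 ratios of FPKM inside each library, by group; points are rats, lines are means of 3 rats, and each panel has its own vertical scale. The ligated rats are above the Sham rats for Lama2 to Lama4, Lamb1 to Lamb2 and Nid1 to Nid2, and below them for Lamb1 to Lamc1 and for the 9 genes to the fibrillar collagens.

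The other basement membrane genes, their receptors and the genes that fold or cut them were taken from lists, and the same threshold was used. For these counts and those of the cell markers, the shares of all genes were 12.1% higher and 10.3% lower in MI vs Sham. In DAPA vs MI they were 0.951% higher and 1.11% lower. Of the 17 other basement membrane genes tested in MI vs Sham, 6 rose and 2 fell, with a median log2 fold change of 0.57. The fibulin Fbln1 rose most (4.13, from 9.17 to 19.8 FPKM in Sham to 172 to 283 in MI), and Fbln2 (2.23) and the calcium-binding matrix proteins Smoc1 (2.44) and Smoc2 (2.20) rose with it. Agrin, the heparan sulfate proteoglycan Agrn, fell by 1.46 on the log2 scale. It was at 0.05 when all FPKM were scaled to the same sum, below the median gene at 1.301. Hmcn1 was the other gene that fell (-1.23), named after its values were seen. In DAPA vs MI 0 of 19 were called.

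Of 13 receptor genes tested in MI vs Sham, 2 rose and 2 fell, against 12.1% and 10.3% of all genes. Itga6, the alpha 6 integrin that binds laminin, fell by 1.79 on the log2 scale (adjusted p = 0.00129). The collagen receptors Ddr2 (1.84) and Ddr1 rose. Sgca, the alpha sarcoglycan, was the other to fall (-1.34, adjusted p = 0.0584), with 0.15 when all FPKM were scaled to the same sum. That is below the median gene at 1.301 under this scaling. In the main fit Sgca was at -0.82 without MI rat 2, and the call also ended without Sham rat 2 or Sham rat 3. In DAPA vs MI 0 of 14 receptors were called, and Itga6 was at 0.57 (adjusted p = 0.558).

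Of 10 genes for collagen folding and crosslinking tested in MI vs Sham, 6 rose and 0 fell, with a median of 1.19. Loxl2, which crosslinks collagen IV, was at 2.98, the prolyl hydroxylase subunits P4hb and P4ha1 at 1.96 and 1.38, the lysyl hydroxylase Plod2 at 1.95 and the collagen chaperone Serpinh1 at 1.59. Of 9 proteases and heparanase tested, 4 rose and 0 fell: Ctss (3.82), Mmp2 (3.61), Mmp14 (3.08) and Ctsb (2.03). In DAPA vs MI 0 of 10 folding genes and 1 of 9 turnover genes were called, the cathepsin Ctss, which was lower by 1.10 log2 units (a log2 fold change of -1.10, adjusted p = 0.558). That call ended without MI rat 2 (-0.88), DAPA rat 1 (-0.97) or DAPA rat 2 (-0.93).

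Fibrillar collagen of the interstitium moved much further. The summed FPKM of Col1a1, Col1a2, Col3a1, Col5a1 and Col5a2 was 113.0 to 276.6 in Sham, 2709 to 5580 in MI and 1340 to 2896 in DAPA. The summed level of the 9 basement membrane genes was 1.29, 1.77 and 2.93 times that sum in the Sham rats, 0.199, 0.117 and 0.212 in MI and 0.355, 0.278 and 0.256 in DAPA. No group overlapped another. The log2 ratio was lower in MI than in Sham by 3.47 units (a difference of -3.47, exact permutation p = 0.1, adjusted p = 0.15 over the 6 tests of ratios) and higher in DAPA than in MI by 0.78 units, or 1.72 times (exact permutation p = 0.1, adjusted p = 0.15), and by 0.51 units without MI rat 2. Col1a1 was the 1 fibrillar chain of 5 called lower in DAPA vs MI (-1.15, adjusted p = 0.558), and the call ended without MI rat 2 (-0.89) or DAPA rat 1 (-0.91).

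Markers of the cells that make or carry basement membranes also differed between the groups, in both directions. Fewer cells of a type and less RNA per cell cannot be told apart in such bulk samples. Of 11 endothelial markers tested in MI vs Sham 7 fell and 0 rose (median -1.42). Their summed FPKM was 1365 to 1777 in Sham, 459.3 to 649.0 in MI and 730.3 to 814.6 in DAPA. Egfl7 was at -2.55, Emcn at -1.74 and Cdh5 at -1.42. With all FPKM scaled to the same sum Cdh5 was at 0.12, below the median gene at 1.301. Cldn5 was listed at 0 in all rats. Of 9 fibroblast markers 8 rose, with a summed level of 63.7 to 87.2 in Sham, 490.2 to 727.8 in MI and 446.8 to 746.5 in DAPA. Of 10 pericyte and smooth muscle markers 3 rose and 1 fell (0 fell without MI rat 2), and all 8 macrophage markers rose. The pericyte call Pdgfrb (1.02) ended without MI rat 1 (0.88), Sham rat 1 (0.98) or Sham rat 3 (0.98). The part of these cell types in the results above was not tested.

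Cardiomyocyte markers were found in all rats, most of them at high levels, though Ryr2 was at 1.21 to 5.82 FPKM. Of 11 tested in MI vs Sham, 3 fell (Myh6, Tnni3 and Mybpc3) and 0 rose. Without MI rat 2, Mybpc3 went from -1.62 to -0.94 and was not called, and 2 of the 11 rose and 2 fell. Their summed FPKM was 7398 to 10853 in Sham, 2249 to 11211 in MI and 8660 to 18262 in DAPA, and in DAPA vs MI 2 were called higher, Myl2 (1.59) and Tnni3 (1.56). Without MI rat 2 these were 0.96 and 0.95 and 0 of 11 were called, as also without MI rat 1, DAPA rat 1 or DAPA rat 2, while all 11 were called higher without MI rat 3 and 4 without DAPA rat 3. Of the remaining lists in MI vs Sham, 2 of 4 lymphocyte and plasma cell markers, 1 of 5 Schwann cell markers and 1 of 2 mesothelial markers rose, 1 mesothelial marker fell and 0 of 1 adipocyte markers were called. The Schwann cell call, S100b, ended without MI rat 1, MI rat 3, Sham rat 2 or Sham rat 3. In DAPA vs MI 2 of 4 lymphocyte and plasma cell markers, 1 of 9 fibroblast markers and 1 of 3 mesothelial markers were called lower. The fibroblast call, Scara5, went from -1.17 to -0.70 and ended without MI rat 2. It also ended without DAPA rat 1 (-0.996) or DAPA rat 2 (-0.97). The lymphocyte call Cd3e went from -1.85 to -1.05 without MI rat 2 but was kept. That call ended without MI rat 3 or without any 1 of the DAPA rats. The mesothelial count was 0 without MI rat 1 or MI rat 2. The part of these differences in the results above was not tested.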

How the data were processed

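RNA-seq of left ventricle from 9 rats, 3 each in Sham, MI and DAPA, was used. The authors deposited 1 table of FPKM per gene and rat, and the submitters' processing notes name HISAT2 2.0.5, StringTie 1.3.3b, featureCounts 1.5.0-p3 and DESeq2, while the genome build is not given in the sources used here. The denominator of the deposited FPKM is not the total of the reads in the table.

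Groups were taken from the labels. Whole reads (within 0.02 of a read) and gene lengths were recovered from the FPKM steps, with the reads per rat in the report covering counting error only. Fits took 2 groups at a time and kept genes that reached 1 FPKM in 3 or more of their 6 rats; they were made with limma 3.58.1 (R 4.3.3) on log2(FPKM + 1), with a trend in the prior variance and Benjamini-Hochberg adjustment over all genes tested, in place of a count test because the values are FPKM. Genes were called at unadjusted p under 0.05 and a log2 fold change beyond 1, the study's threshold. Ratios were tested by two-sided exact permutation over rats, which cannot go below p = 0.1. The study calls the samples biological replicates. Each sample title also names 2 numbered items, and what these are is not given in the sources used here, so p-values measure only the spread between these 9 samples. Scripts were tested on simulated data.

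Named genes were all 10 members, at most 5 genes of each other list with the smallest p in MI vs Sham and 3 in DAPA vs MI, and the 5 genes most alike in pattern. The members and lists were chosen with earlier results of these data known. Of the other lists, 2 genes are not reported here and were left out of every list count. Alternatives covered the pseudocount, the filter, library scaling, all rats in 1 fit, a replicate block, leaving out each rat, the call threshold and, added after the data were seen, limma-voom on the recovered reads and the perlecan row as a member. Promoter sequences are from RefSeq (GRCr8). Summaries and figures used pandas 2.3.3, numpy 2.4.6 and matplotlib 3.10.9 (Python 3.11.15).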

Additional observations from a re-analysis of the deposited data

How the results depend on the processing

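The count of basement membrane genes higher in MI vs Sham stayed between 4 and 6 when any 1 rat was left out, with 4 without Sham rat 2 or MI rat 1, and was 5 to 7 under the other settings except the scaling of all FPKM to the same sum, where all 9 were called. That scaling also gave 9 in DAPA vs Sham and 1 in DAPA vs MI (Nid1, -1.04, adjusted p = 0.404), since mitochondrial genes, whose share differs between groups, enter that sum and the median gene moves by 1.301, 1.00 and -0.34 in MI vs Sham, DAPA vs Sham and DAPA vs MI. It called 9214 genes higher and 198 lower in MI vs Sham, against 1634 and 1390. In MI vs Sham the perlecan row turned to 0.90 under it, still below that median. With no fold threshold 1 gene was lower in DAPA vs MI and 8 were higher in DAPA vs Sham. Leaving out 1 rat gave 3 to 6 genes higher in DAPA vs Sham and 0 lower in DAPA vs MI.

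The log2 ratio of Col4a1 to Col4a2 in DAPA vs MI ran from -0.034 to 0.13 when 1 rat was left out, negative without DAPA rat 2 or MI rat 2. Col15a1 in MI vs Sham passed with all 9 rats in 1 fit (adjusted p = 0.0871) and with limma-voom (1.86, adjusted p = 0.0846), before adjustment, and the cause was not tested.

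Replicate numbers name different rats and were not taken as pairs: same-numbered rats correlated at -0.02, -0.02 and 0.08 in MI and Sham and at 0.02, -0.36 and -0.29 in DAPA and MI, and at 0.12, 0.21 and -0.02 in DAPA and Sham. With a replicate block the counts were 6, 0 and 5 for MI vs Sham, DAPA vs MI and DAPA vs Sham, Col15a1 being the gene gained (adjusted p = 0.0718). Over all genes, DAPA vs MI gave 126 higher and 147 lower calls, 71 and 146 with the block, 184 and 224 with a pseudocount of 0.1, 186 and 335 with FPKM outside the mitochondrial genome scaled, 193 and 174 with limma-voom, and 54 and 557 with all FPKM scaled.

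With 3 rats a group a variable gene is poorly resolved: a difference of 1.59 in Col15a1 did not pass. The reads outside the mitochondrial genome were fewest in Sham.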
